A study of Mus musculus with 10 samples.

Results

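The 5 vector-control arrays of a mouse leukaemia series are described here, out of 10 arrays in all. They were chosen by their labels alone, as the samples transduced with the empty vector, and no expression value entered the choice. The series profiled the murine Mll-AF9 leukaemia line 4166 on whole-transcriptome Affymetrix arrays, and its other 5 arrays come from cells given a lentivirus with an shRNA against Meis1. The control cells received the empty lentivirus, were selected with puromycin and were profiled 48 hours after transduction. All 10 samples share the leukaemia line, the lentiviral backbone, the selection and a medium of IMDM with 15% FBS and 2 ng/ml interleukin-3 (IL-3). The labels pair each control with the shRNA sample of the same number, but they do not say whether the 5 controls came from separate cultures, so the spread between them may be in part technical. It is 1 leukaemia line, and no normal blood cell was measured beside it.

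Mll-AF9 is a fusion of the chromatin regulator Mll with Af9, a partner of the transcription elongation machinery, and it drives acute myeloid leukaemia. The fusion is known to keep genes such as Hoxa9 and Meis1 active and to hold myeloid progenitors in a dividing state. Maturing granulocytes make their granule proteins in waves: primary granule enzymes such as myeloperoxidase at the promyelocyte stage, and secondary granule proteins such as lactoferrin later. Monocytes take another path, with the receptor Csf1r, lysozyme and scavenger receptors. Genes are taken in the order of lineage, receptors, metabolism and regulators.

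The array measured 18193 genes by name, each represented by the probe set (a group of probes to one transcript) that was brightest over the 5 controls, and every level is a log2 intensity. A gene was called bright where it reached 9 on all 5 arrays, dim where it stayed under 4 on all 5, and variable where its mean was at least 5 and its highest and lowest arrays lay at least 1 apart, a factor of 2. Of all genes, 1865 (10.3%) were bright, 10028 (55.1%) were dim and 423 were variable, which is 2.33% of all genes and 6.26% of the 6762 with a mean of at least 5. Probe sets bind their targets with different efficiency, so a class gives brightness against the background of the array and does not rank genes by transcript number. The probe sets for Trpn, a bacterial spike-in gene used as a blank, read between 1.71 and 2.30. With 1 group there is no test, and the spread is the standard deviation (SD) over the 5 arrays.

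Control 5 stood apart. Over the 45037 probe sets used, Pearson's r between pairs of arrays was 0.989 to 0.996. It is a description across probe sets, which are not independent replicates. Controls 1 and 2 were closest, with 2 genes at least 2-fold apart among those with a mean of at least 5, and controls 2 and 5 were farthest, with 231. The signal ratio of 3′ to 5′ control probes, a sign of RNA quality, was 0.37 on the log2 scale in control 5 and 0.20 to 0.28 in the others, and its part in the differences was not tested. Without control 5 the number of variable genes was 173 in place of 423, and 158 of those were among the 423. Where the range of a gene rests on control 5, its range without that array is therefore given too.

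The control cells carried a primary granule programme. Of the 13 measured primary granule genes, 10 were bright and 0 were dim, against 10.3% bright and 55.1% dim among all genes. The bright ones include Calr, Hexa and Gusb, at means of 13.30, 10.79 and 11.49, which are not particular to granulocytes. Mpo, the enzyme that makes hypochlorous acid from hydrogen peroxide, read 13.22, 13.21, 13.49, 13.33 and 13.74 on controls 1 to 5. Prtn3, the serine protease proteinase 3, read 12.21, 12.26, 12.58, 12.51 and 12.89. Both genes moved by less than 1 across the arrays, and control 5 was highest for each. Ctsg, the protease cathepsin G, was both bright and variable at 12.41, 12.39, 13.01, 13.02 and 13.66, with a range of 0.63 without control 5. Elane, neutrophil elastase, read 10.47, 10.33, 11.74, 11.84 and 11.71, a 2.86-fold span. Controls 1 and 2 were the low arrays for Elane, and leaving out control 5 did not change its range of 1.51. Srgn, the proteoglycan that packs proteases into granules, stayed at 13.66 ± 0.07 (SD, n = 5). The summed linear intensity of the 13 genes, Calr, Hexa and Gusb included, was 50747, 50572, 62949, 60732 and 71865 on controls 1 to 5.

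Mpo, Elane and Prtn3 are shown here with the 250 bases before their start sites because they were all bright and all held the same short motif. The sequences are from RefSeq on GRCm38.p6, given 5′ to 3′ on the gene's strand, with the PU.1 motif GAGGAAGT, or its reverse complement, in capitals. PU.1 is the myeloid transcription factor encoded by Spi1. The promoters lie at chr10:79886062-79886311 (plus strand) for Elane, chr11:87793534-87793783 (plus strand) for Mpo, and chr10:79879417-79879666 (plus strand) for Prtn3, and the window of S100a8, a gene described further on, lies at chr3:90668821-90669070 (plus strand).
Elane: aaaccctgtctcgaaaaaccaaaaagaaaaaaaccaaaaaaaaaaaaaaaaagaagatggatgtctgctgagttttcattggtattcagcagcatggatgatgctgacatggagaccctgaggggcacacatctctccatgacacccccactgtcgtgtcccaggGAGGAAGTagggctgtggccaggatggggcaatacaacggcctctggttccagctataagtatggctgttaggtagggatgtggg
Mpo: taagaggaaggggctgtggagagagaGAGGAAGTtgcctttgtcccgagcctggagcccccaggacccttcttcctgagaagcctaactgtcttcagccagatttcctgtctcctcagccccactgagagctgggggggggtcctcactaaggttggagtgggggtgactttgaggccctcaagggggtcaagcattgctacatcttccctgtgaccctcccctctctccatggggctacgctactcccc
Prtn3: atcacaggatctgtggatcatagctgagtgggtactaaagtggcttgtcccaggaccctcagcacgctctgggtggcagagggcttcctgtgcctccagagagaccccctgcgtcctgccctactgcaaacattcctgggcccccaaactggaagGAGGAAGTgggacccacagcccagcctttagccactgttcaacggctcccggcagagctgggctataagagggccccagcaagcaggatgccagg
S100a8: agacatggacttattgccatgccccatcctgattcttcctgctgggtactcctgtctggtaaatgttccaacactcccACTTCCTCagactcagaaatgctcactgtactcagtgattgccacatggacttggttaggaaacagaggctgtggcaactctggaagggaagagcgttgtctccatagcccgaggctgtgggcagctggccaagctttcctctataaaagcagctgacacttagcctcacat
The motif was searched on both strands. It was found in 3 of the 12 primary granule genes with a RefSeq promoter, and in 2.44% of 32851 promoters of that length. Ctsg, also bright, and Lyz2 held no match in their windows. The printed genes were chosen for holding the motif, and Elane and Prtn3 lie close together, so the count is no test. The motif of GATA factors, searched as AGATAAG, was in 2.74% of promoters and that of C/EBP factors, searched as TTGCGNAA, in 0.670%. The E-box, searched as CACGTG, was in 6.02% and the TATA box, searched as TATAAA, in 12.4%. No motif contains another. None of the 12 genes held the GATA or C/EBP motif, 1 held the E-box (Calr) and 2 held TATAAA or its reverse complement (Ctsg and Srgn). Matches counted on either strand at any position in the window, so a TATAAA match need not be a TATA box in use. A match is a description of the letters and shows no binding.

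Lactoferrin and several other late granule genes were near background. Of 15 secondary granule genes, 0 were bright and 9 were dim, a dim share of 60.0% close to the 55.1% among all genes. Ltf, which encodes lactoferrin, had a mean of 2.19 ± 0.15 (SD, n = 5), Camp, the cathelicidin precursor, 2.30 ± 0.24, and Ngp, neutrophilic granule protein, 2.05 ± 0.11. These means were close to the readings of the blank probe sets. Padi4, which converts arginine to citrulline in histones, averaged 8.36 ± 0.12. Lcn2, the iron-siderophore binder lipocalin 2, was variable at 6.24, 6.23, 8.07, 8.08 and 8.29, and again controls 1 and 2 were low. Olfm4, a granule glycoprotein, ranged from 5.23 to 6.36.

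S100a8 and Chil3 separated control 5 from the rest. S100a8, a subunit of the calcium-binding complex calprotectin, read 3.07, 2.99, 3.92, 3.80 and 9.10. Its partner S100a9 read 2.49, 2.22, 2.76, 2.70 and 4.74. Chil3, a chitinase-like protein of neutrophils and macrophages, read 1.43, 1.54, 1.81, 1.82 and 8.03. In all 3 genes the first 4 arrays stayed under 4 and control 5 alone was above it. Their ranges were 6.10, 2.52 and 6.60, and without control 5 they were 0.93, 0.55 and 0.39. Their means of 4.58, 2.98 and 2.92 keep them out of the variable class, which holds only genes with a mean of at least 5. A further 149 genes have a lower mean, a highest array of at least 5 and a range of at least 1. In bulk samples more cells of a type and more RNA per cell cannot be told apart.

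Monocyte and macrophage genes were split. Of 26 measured, 1 was bright, 13 were dim and 6 were variable, 4 without control 5. The dim share was close to the 55.1% among all genes, of which 10.3% were bright, so it does not set the list apart. Emilin2, an extracellular matrix glycoprotein, was the bright one at 11.36, 11.50, 11.23, 11.36 and 10.44, with a range of 0.27 without control 5. Csf1r, the receptor for macrophage colony-stimulating factor, was dim on every array, with a mean of 3.64 ± 0.32 (SD, n = 5). Mrc1, Msr1, Cd163, Marco, C1qa and C1qb, scavenger receptors and complement genes of mature macrophages, were dim as well. Lyz2, myeloid lysozyme, read 6.62, 6.94, 7.69, 7.65 and 9.35, and F13a1, a coagulation factor subunit made by monocytes, 6.28, 6.08, 7.92, 7.40 and 9.39. Control 5 was highest for both, and without it the ranges of 2.73 and 3.31 became 1.07 and 1.84. Adgre1, which encodes the macrophage antigen F4/80, read 7.30, 7.08, 8.26, 8.33 and 8.80. Mpeg1, a pore-forming protein of phagocytes, had another order, 7.19, 7.14, 4.70, 4.82 and 7.50, with controls 3 and 4 low.

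Control 5 was the high array for the list. Among the 9 monocyte and macrophage genes with a mean of at least 5, the median deviation of control 5 from each gene's own mean was 0.84, against -0.06 over all such genes. The other 4 arrays lay between -0.21 and 0.04. The summed linear intensity of all 26 genes was 4938, 5229, 4742, 5163 and 5409, of which Emilin2, lowest in control 5, made up 2635, 2902, 2407, 2626 and 1389. The sum of the other 25 genes was 2303, 2327, 2335, 2537 and 4020, highest in control 5. Cd14, the lipopolysaccharide co-receptor, went from 2.86 and 2.84 in controls 1 and 2 to 4.39, 4.51 and 5.34 in controls 3 to 5. Ccl9, a chemokine of myeloid cells, read 4.10, 3.92, 3.94, 3.98 and 6.85, with a range of 0.18 without control 5.

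**Figure D1:**
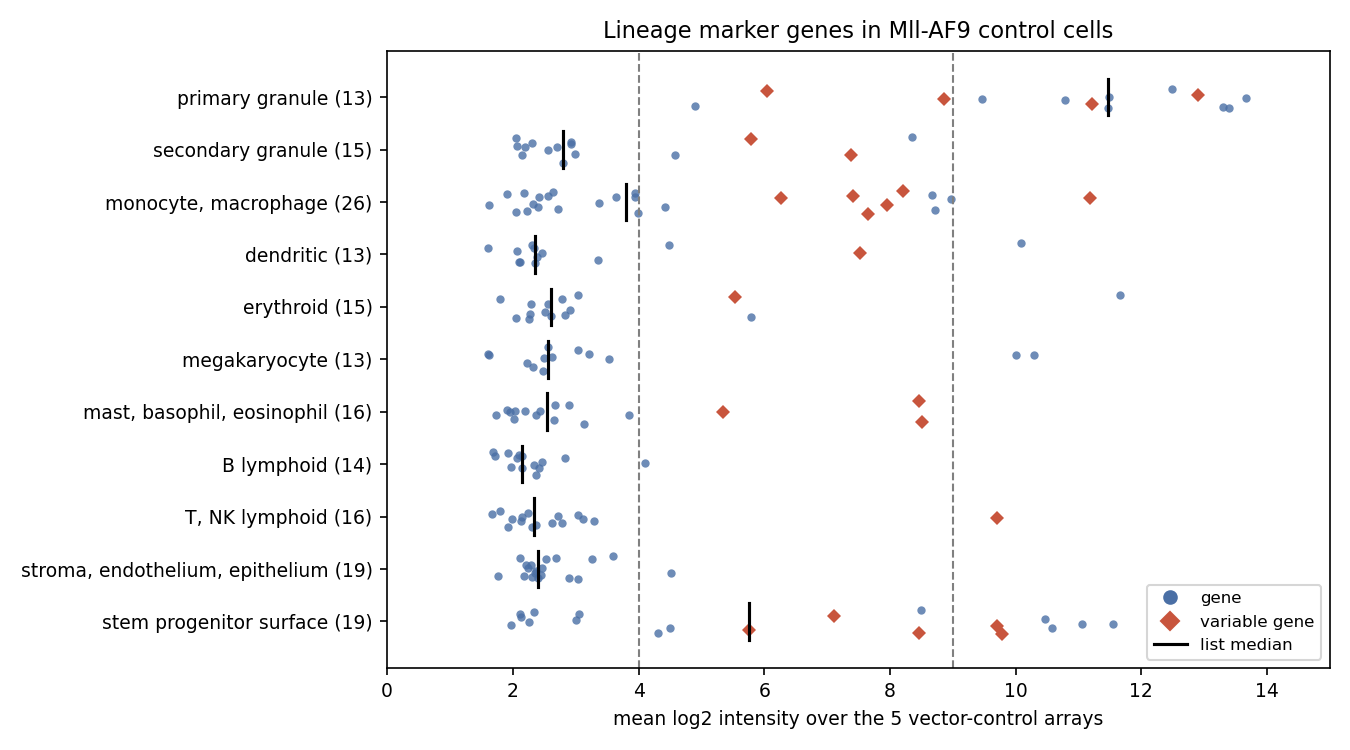
Mean log2 intensity over the 5 vector-control arrays (x axis) for the genes of each lineage list (y axis, number measured in brackets); each point is a gene, diamonds are variable genes, bars are list medians and dashed lines mark 4 and 9. Primary granule genes sit mostly to the right of 9, while the lymphoid, erythroid, megakaryocyte and stromal lists sit mostly to the left of 4.

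Markers of other cell types were near background. With the primary granule genes bright, the defining markers did not go against the label of a myeloid leukaemia culture. Of 14 B cell genes 13 were dim, and the other was Igll1, a surrogate light chain gene, at 4.11 ± 0.25 (SD, n = 5). Pax5, the B cell commitment factor, had a mean of 2.42 and Ms4a1, which encodes CD20, 2.83. Of 16 T and NK cell genes 15 were dim, among them Cd3e, a T cell receptor component, at 2.77. The exception was Thy1, a surface glycoprotein also found on progenitors, which read 10.24, 10.25, 9.69, 9.91 and 8.47. It was lowest in control 5 and had a range of 0.56 without it. Of 19 stromal, endothelial and epithelial genes 18 were dim, with Col1a1, a collagen chain, at 2.28 and Krt5, a keratin, at 3.60. Pecam1, an adhesion molecule of endothelium and of blood cells, was the other, and fell between 3.27 and 5.48.

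Erythroid and megakaryocyte effectors were dim, while some of the shared regulators were bright. Of 15 erythroid genes 12 were dim, including Gata1 at 2.61 ± 0.12 and Klf1 at 3.04 ± 0.29 (SD, n = 5), the main erythroid transcription factors. Tfrc, the transferrin receptor that dividing cells also need, was bright at 11.67 ± 0.07. Car2, carbonic anhydrase 2, was variable at 5.99, 6.42, 5.34, 5.76 and 4.13, with a range of 1.08 without control 5. Of 13 megakaryocyte genes 11 were dim, including Pf4, platelet factor 4, at 3.04 and Itga2b, the platelet integrin subunit, at 3.52. The remaining ones, the transcription factors Fli1 (range 0.31) and Nfe2 (10.29 ± 0.14), were bright.

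Mast cell, basophil and eosinophil genes were dim in 12 of 16 cases, including Cpa3, a mast cell protease, at 2.43, Fcer1a, the IgE receptor chain, at 1.91 and Prg2, eosinophil major basic protein, at 2.04. Mcpt8, a basophil protease, did not follow them and read 8.09, 8.11, 8.54, 9.22 and 8.60. Kit, the stem cell factor receptor of progenitors and mast cells, read 8.10, 7.91, 8.42, 8.77 and 9.12. Gata2, a transcription factor of stem cells and mast cells, read 5.41, 5.47, 5.50, 6.31 and 4.01. Kit was highest and Gata2 lowest in control 5, and without it their ranges of 1.21 and 2.30 became 0.86 and 0.90.

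Of 13 dendritic cell genes 10 were dim, the class II antigen presentation genes Cd74, H2-Ab1, H2-Aa and H2-Eb1 among them. Tcf4, a factor of plasmacytoid dendritic cells, was bright at 10.08 ± 0.14 (SD, n = 5), and Bst2, an interferon-inducible membrane protein, was variable at 6.74, 6.85, 8.30, 7.87 and 7.87. Bst2 lies in a region of chromosome 8 whose genes shifted together between the arrays, described further on. The part of that shift in the range of Bst2 was not tested. Flt3, a receptor of dendritic and lymphoid progenitors, stayed between 4.13 and 5.09.

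Surface genes of stem and progenitor cells were found in every class. Of 19 measured, 5 were bright, 7 were dim and 5 were variable, 0 without control 5. Cd34, a sialomucin of progenitors, was bright at 10.35, 10.48, 10.68, 10.70 and 10.12, as were Cd93, a lectin-like receptor (11.06 ± 0.22, SD, n = 5), Cd47, the signal that blocks phagocytosis (11.55 ± 0.06), and Cd44, the hyaluronan receptor (10.58 ± 0.04). Of the Fc receptors used to stain granulocyte and macrophage progenitors, Fcgr2b was bright at 9.34, 9.08, 9.89, 9.96 and 10.66 (range 0.88 without control 5) and Fcgr3 was dim at 3.01 ± 0.28. Cd96, an adhesion receptor also reported on leukaemia stem cells, read 7.88, 7.94, 7.45, 7.76 and 4.49. Its 10.9-fold span came from control 5, and its range without that array was 0.50. Procr, the protein C receptor, went the other way, with 6.89 in control 5 and 5.09 to 5.67 in the others, a range of 0.58.

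Cytokine receptors were less often bright and less often dim than genes at large. Of 39 growth factor and cytokine receptor genes, 3 were bright (7.69%), 17 were dim (43.6%) and 7 were variable, 2 without control 5. Among all genes 10.3% were bright and 55.1% were dim. IL-3, which the medium contained, signals through a specific chain and a shared beta chain. The beta chain Csf2rb was bright at 10.19, 10.39, 10.53, 10.58 and 9.98, and the related Csf2rb2, specific to IL-3 in the mouse, read 7.62, 7.82, 7.95, 8.23 and 6.64, with a range of 0.61 without control 5. The specific chain Il3ra stayed between 4.85 and 5.38. Csf2ra, the specific chain for granulocyte and macrophage colony-stimulating factor, was dim at 2.59 ± 0.33 (SD, n = 5). Csf3r, the granulocyte colony-stimulating factor receptor, was variable at 5.20, 5.54, 6.23, 6.21 and 6.49. The genes of feedback downstream of such receptors differed from one another. Socs2 (9.83 ± 0.25) and Pim1 (9.57 ± 0.16), a suppressor of signalling and a kinase, were bright and Cish, another suppressor, averaged 9.05 ± 0.09, while Socs3 ranged from 3.29 to 4.95.

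Among the other receptors, Cxcr4, which holds progenitors in the marrow, was bright and steady at 9.47 ± 0.09 (SD, n = 5). Adgrg3, an adhesion receptor of granulocytes, was bright at 10.25 ± 0.28. Of 27 chemokine and related receptors, these were the 2 bright ones (7.41%), and 14 were dim (51.9%). Those shares were near the 10.3% and 55.1% among all genes. Adgre5, which encodes CD97, was variable at 5.52, 5.12, 6.19, 5.85 and 7.90, with a range of 1.07 without control 5. Of 21 pattern recognition genes 0 were bright and 14 were dim (66.7%). Tlr2 and Tlr4, sensors of bacterial products, averaged 4.39 ± 0.27 and 4.41 ± 0.35. Clec4d, a lectin receptor, was the variable one and had its low reading, 5.79, in control 3.

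Adaptors of immune receptors were bright. Tyrobp, the DAP12 adaptor, averaged 11.11 ± 0.11 (SD, n = 5) and Fcer1g, the Fc receptor gamma chain, 9.60 ± 0.05. Of the 23 genes of that list 3 were bright and 10 were dim (43.5%, against 55.1% among all genes). Cd244a, a receptor of the SLAM family, read 8.47, 8.42, 8.22, 8.46 and 6.89, low in control 5, with a range of 0.25 without it. Of 23 integrin and adhesion genes 7 were bright and 3 were dim. Spn, the sialomucin CD43, averaged 10.93 ± 0.08, Cd53, a tetraspanin, 10.77 ± 0.22 and Ptprc, the pan-leukocyte phosphatase CD45, 9.51 ± 0.14. Among the integrin chains of mature phagocytes, Itgal read 6.42, 6.06, 7.74, 7.72 and 7.86, and Itgb2, the shared beta chain, 7.48, 7.42, 8.20, 8.23 and 8.78. Itgam, which encodes CD11b, followed at 4.38, 4.12, 5.34, 5.23 and 5.47. Controls 1 and 2 were low for all 3 chains. Itgal and Itgb2 were variable, and without control 5 their ranges of 1.80 and 1.36 became 1.68 and 0.82, so that Itgb2 was no longer variable.

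Tricarboxylic acid cycle genes were bright and steady, while glycolytic genes were not as steady. Of 25 tricarboxylic acid cycle genes 19 were bright. The median range of the 23 with a mean of at least 5 was 0.18, against 0.38 over all such genes. Over all bright genes the median range was 0.24. Mdh2, mitochondrial malate dehydrogenase, averaged 12.61 ± 0.07 (SD, n = 5), Mdh1, its cytosolic form, 11.48 ± 0.06 and Idh2, mitochondrial isocitrate dehydrogenase, 9.51 ± 0.07. The cytosolic Idh1 was the variable one at 8.87, 8.78, 9.49, 9.39 and 9.91, with a range of 0.72 without control 5. All 21 respiratory chain, ribosomal and housekeeping genes of that list were bright. Of 21 glycolytic genes 10 were bright, and the median range of the 16 with a mean of at least 5 was 0.47. Their median deviation in control 5 was -0.24, and the summed linear intensity of the list was 32278, 32764, 32210, 33330 and 27713. The bright ones include Ldha, lactate dehydrogenase A (11.94 ± 0.14), Pgk1 (12.37 ± 0.16) and the glucose transporter Slc2a1 (9.75 ± 0.26). Of the hexokinases, which start glycolysis, Hk3 was bright at 10.14 ± 0.25. Pfkl, the liver form of phosphofructokinase, read 9.45, 9.49, 9.68, 9.59 and 8.63, with a range of 0.24 without control 5.

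Many genes that feed cell division were bright. Of 22 nucleotide synthesis genes 13 were bright and 0 were dim. Paics, an enzyme of purine synthesis, averaged 11.95 ± 0.15 (SD, n = 5) and Rrm2, a subunit of ribonucleotide reductase, 10.97 ± 0.12. Of 25 serine, one-carbon and amino acid genes 13 were bright. Phgdh, the entry enzyme of serine synthesis, averaged 12.07 ± 0.07, Psat1, the next enzyme, 11.20 ± 0.09 and Odc1, the entry enzyme of polyamine synthesis, 11.73 ± 0.07. Slc7a11, the cystine transporter, was dim at 2.80 ± 0.32. Trib3, a stress-induced pseudokinase, was the variable member and ranged from 4.45 to 5.98.

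The stearoyl-CoA desaturase genes Scd2 and Scd1 fell in opposite classes. Of these enzymes, which make monounsaturated fatty acids, Scd2 was bright at 11.54, 11.58, 11.61, 11.82 and 11.44 and Scd1 was dim at 2.17, 2.07, 2.32, 2.29 and 2.40. Acly and Fasn, which make and use cytosolic acetyl-CoA units for fatty acids, averaged 10.45 ± 0.18 and 9.50 ± 0.25 (SD, n = 5). Of 16 fatty acid synthesis genes 7 were bright, and of 23 fatty acid oxidation genes 8 were bright, with 0 variable in either list. Of 22 sterol genes 5 were bright, among them Hmgcs1 (11.10 ± 0.17) and Fdps (10.79 ± 0.24), enzymes of the mevalonate route, and 1 was dim, the cholesterol exporter Abca1 (2.33 ± 0.11).

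Redox genes held both bright and dim parts of one enzyme. Of 27 antioxidant and oxidase genes 16 were bright, with Gpx1, glutathione peroxidase 1, at 13.38 ± 0.06 and Txn1, thioredoxin, at 12.51 ± 0.02 (SD, n = 5). In the phagocyte NADPH oxidase, the subunit genes Cyba, Ncf1 and Ncf4 were bright and Cybb, its catalytic subunit, was dim at 2.10, 2.18, 2.42, 2.40 and 2.36. Mgst1, a microsomal glutathione transferase, was variable at 6.16, 6.08, 8.03, 7.73 and 9.77, a 12.9-fold span, and Mgst2 at 9.16, 9.10, 9.88, 9.49 and 10.93. Control 5 was highest for both, and without it the ranges of 3.69 and 1.83 became 1.95 and 0.79. Among iron and haem genes, Fth1, ferritin heavy chain, averaged 13.35 ± 0.16, and Alas1, the first enzyme of haem synthesis outside red cells, read 8.27, 8.37, 9.07, 8.66 and 9.90, with a range of 0.79 without control 5. Hmox1, which degrades haem, ranged from 6.14 to 7.18.

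**Figure D2:**
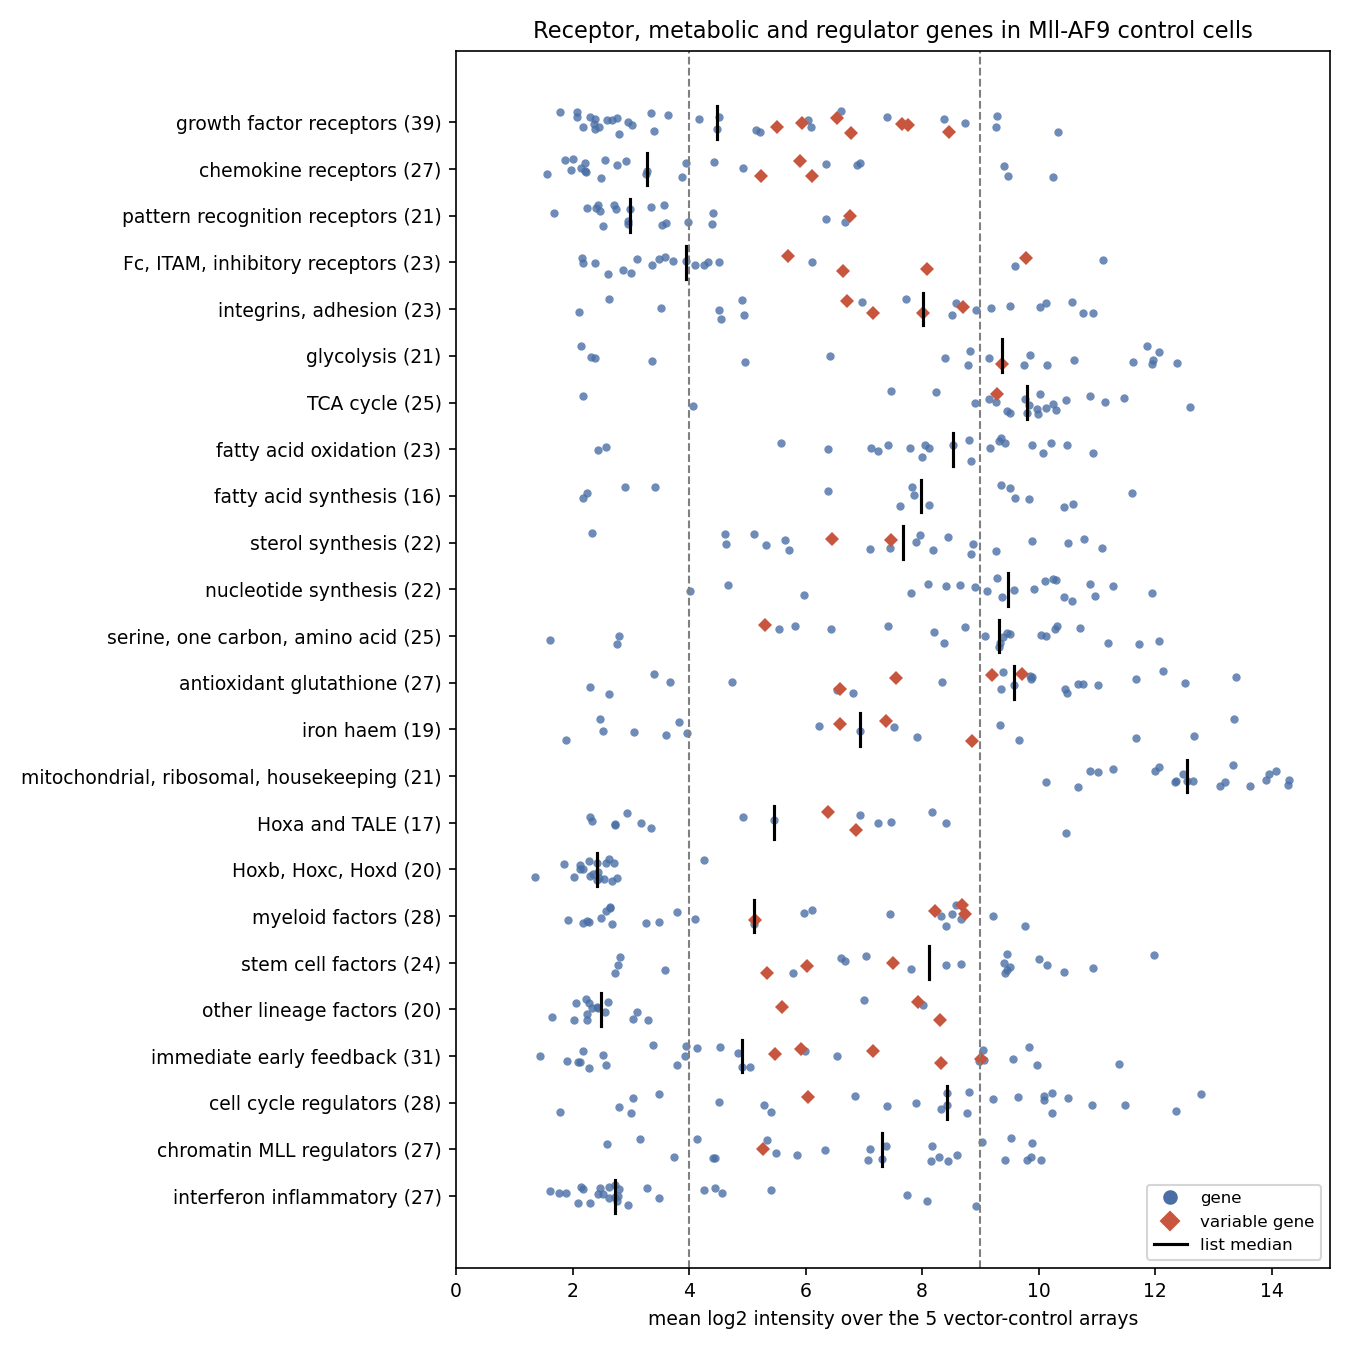
Mean log2 intensity over the 5 vector-control arrays (x axis) for the genes of each receptor, metabolic and regulator list (y axis, number measured in brackets); each point is a gene, diamonds are variable genes, bars are list medians and dashed lines mark 4 and 9. The tricarboxylic acid cycle and housekeeping lists lie mostly above 9, while 19 of 20 Hoxb, Hoxc and Hoxd genes lie below 4.

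Hoxa9, Meis1, Hoxa10 and Pbx3 were measured well above background and were not variable, while the Hoxa and TALE list as a whole was mixed. Of its 17 genes 1 was bright, 7 were dim and 2 were variable, 1 without control 5. The median range of its 9 genes with a mean of at least 5 was 0.69, against 0.38 over all such genes. Hoxa9, the homeobox gene most tied to this leukaemia, read 10.49, 10.44, 10.39, 10.53 and 10.53. Meis1, its DNA-binding partner, read 8.63, 8.69, 8.21, 8.38 and 8.18, in cells that carried no shRNA against it. Hoxa10 averaged 8.17 ± 0.31 and Pbx3, another cofactor, 7.47 ± 0.14 (SD, n = 5). Pbx2 was variable at 6.92, 6.93, 7.22, 7.15 and 6.11, with a range of 0.29 without control 5. Hoxa11 was the variable Hoxa gene, at 4.68, 4.78, 7.29, 7.30 and 7.85, a 9.01-fold span with controls 1 and 2 low. Of the 20 Hoxb, Hoxc and Hoxd genes 19 were dim, and the other, Hoxb3, averaged 4.26 ± 0.19.

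Stem and progenitor factors were bright in 10 of 24 cases and dim in 4. Myb, a factor that keeps progenitors dividing, averaged 11.98 ± 0.05 with a range of 0.13, and Myc, the growth regulator, averaged 10.93 ± 0.19 (SD, n = 5). Mecom, which encodes Evi1, averaged 9.46 ± 0.06, Sox4, a transcription factor of progenitors, 10.15 ± 0.16 and Lyl1, a helix-loop-helix factor, 10.43 ± 0.20. Hlf, a stem cell factor, and Mycn, a Myc relative, were dim at 2.73 and 2.82. Gfi1b, a repressor of the erythroid and platelet lines, read 6.64, 6.42, 6.11, 6.85 and 4.11, and Zfpm1, the GATA cofactor FOG1, 6.20, 6.13, 5.84, 5.88 and 3.92. Runx1, a master regulator of blood formation, read 5.22, 5.50, 5.43, 5.21 and 4.26. All 3 were lowest in control 5, and without it their ranges were 0.73, 0.36 and 0.29.

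Myeloid factors were mostly intermediate. Of 28, 1 was bright, Cebpb, a factor of stress granulopoiesis, at 9.76 ± 0.21 (SD, n = 5), and 11 were dim. Spi1, which encodes PU.1, averaged 8.58 ± 0.17 and Cebpa, the granulocyte commitment factor, 8.32 ± 0.31. Gfi1, a repressor needed for granulocytes, was variable at 7.52, 7.58, 8.20, 8.45 and 9.33, highest in control 5, with a range of 0.93 without it. Irf8, a monocyte and dendritic factor, read 9.01, 9.12, 8.23, 8.42 and 8.59. Id2, an inhibitor of helix-loop-helix factors, read 9.46, 9.29, 8.46, 8.86 and 7.63, with a range of 1.83 and of 1.00 without control 5. Among factors of other lines 15 of 20 were dim, while Notch1, a receptor that acts as a factor after cleavage, was variable at 6.84, 7.42, 8.60, 8.80 and 7.96.

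Cell cycle genes were bright in 11 of 28 cases. Of the D cyclins, which carry growth signals to the cell cycle, Ccnd2 and Ccnd3 were bright at 10.22 ± 0.19 and 10.10 ± 0.32 and Ccnd1 was dim at 3.04 ± 0.22 (SD, n = 5). Their kinase partner Cdk6, a known Mll fusion target, averaged 11.49 ± 0.12. Of the inhibitors, Cdkn1a (p21) was bright at 10.51 ± 0.13, and Cdkn2a and Cdkn2b, from the neighbouring tumour suppressor loci, were dim at 2.79 ± 0.29 and 3.01 ± 0.10. Mki67, a proliferation marker, averaged 10.10 ± 0.19.

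Immediate-early and feedback genes were spread over the classes. Of 31, 4 were bright, 9 were dim (29.0%) and 5 were variable, 2 without control 5. Egr1, Nr4a1 and Atf3, early genes of growth factor and stress responses, averaged 2.18, 2.09 and 2.28. Jun, a subunit of the AP-1 factor, read 5.71, 5.78, 5.40, 6.51 and 3.94, and Fos, its partner, 3.51, 3.54, 3.67, 3.49 and 4.74. Control 5 was lowest for Jun and highest for Fos, and without it their ranges of 2.58 and 1.25 became 1.11 and 0.18. Mcl1, a survival protein of myeloid cells, was bright at 11.38 ± 0.07 (SD, n = 5). Of 27 interferon and inflammatory genes 0 were bright and 19 were dim (70.4%, against 55.1% among all genes), including the cytokines Il1b (2.80 ± 0.12) and Tnf (3.27 ± 0.11).

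Of 27 chromatin regulators 6 were bright and 3 were dim. The bright ones include the Polycomb genes Eed (10.04 ± 0.04) and Ezh2 (9.53 ± 0.10) and the histone demethylase Kdm1a (9.89 ± 0.13; SD, n = 5). Men1, the menin cofactor of Mll, averaged 8.60 ± 0.24, and Dot1l, the H3K79 methyltransferase recruited by the fusion, ranged from 4.72 to 5.74, with a range of 1.02 and of 0.51 without control 5. Kmt2a, which encodes Mll, averaged 4.42 ± 0.29 and Mllt3, which encodes Af9, 3.73 ± 0.16. Whether their probe sets also read the fusion transcript was not tested.

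Across all lists, each gene counted once, 181 of 716 measured members were bright, 274 were dim and 66 were variable. Without control 5 the variable members were 28. The lists hold genes chosen for blood cells, so their shares are not those of genes at large.

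**Figure D3:**
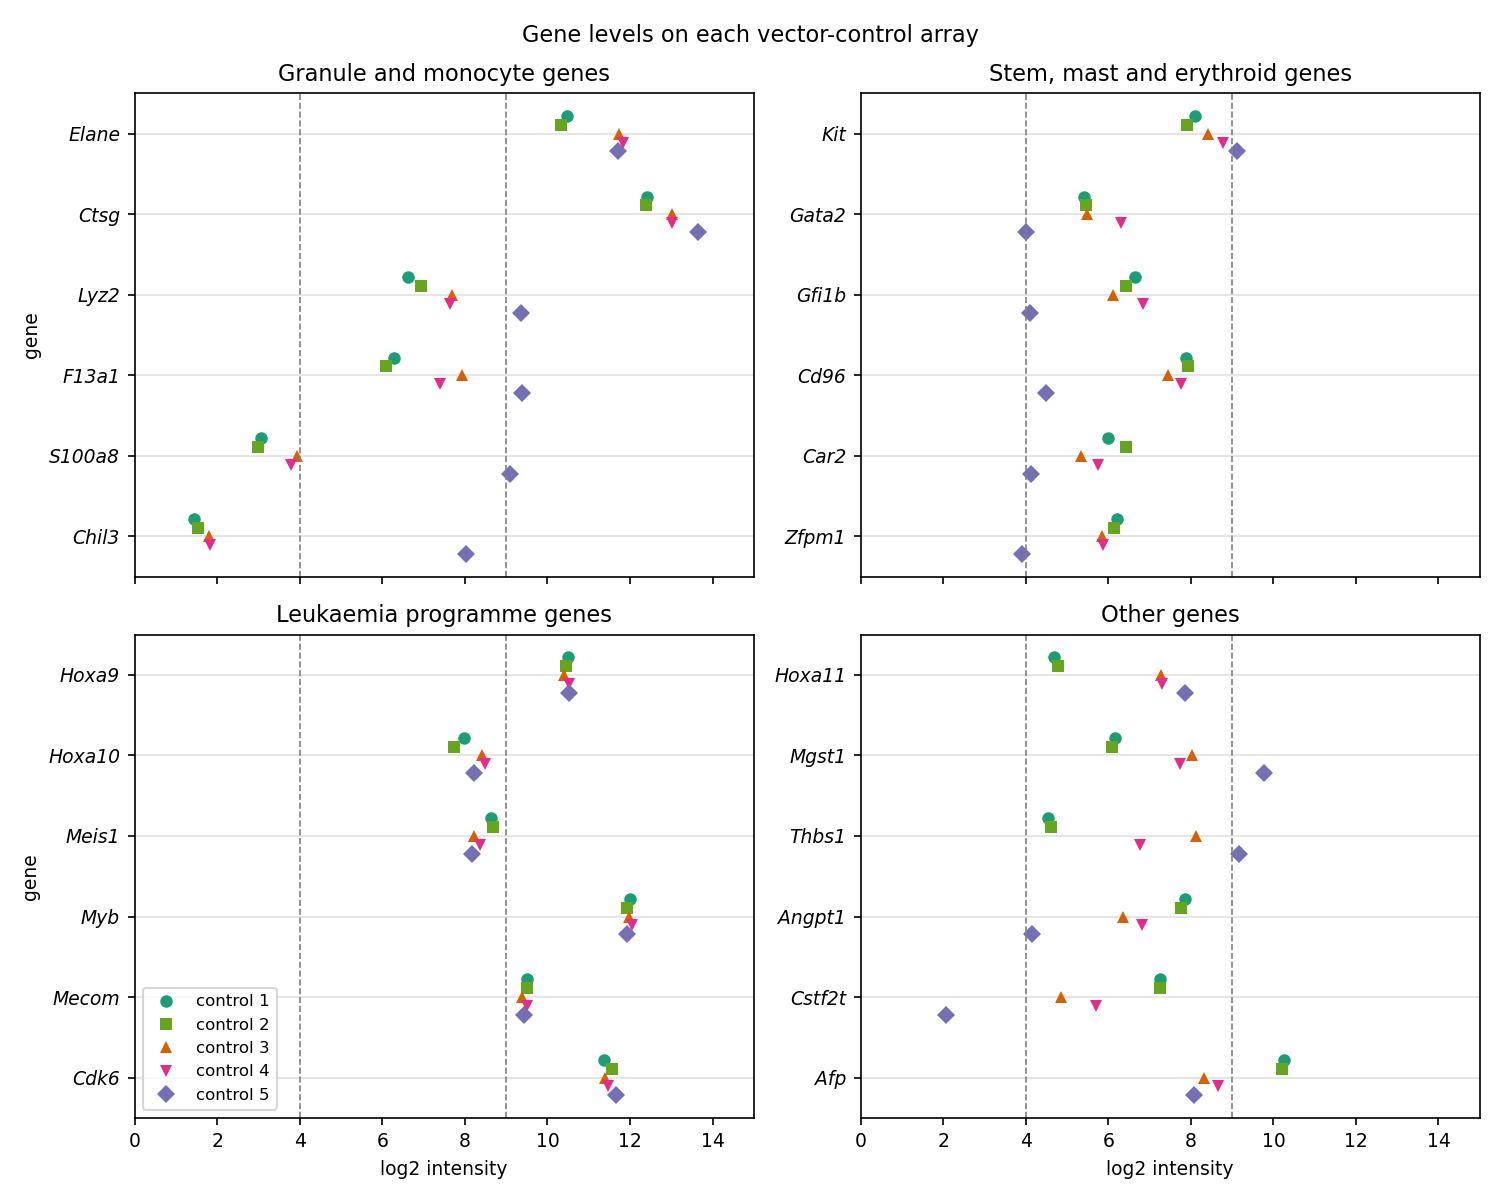
Log2 intensity (x axis) of 24 genes (y axis) in 4 panels, with 1 marker per vector-control array and dashed lines at 4 and 9. S100a8 and Chil3 lie above 8 in control 5 alone, and Gata2, Gfi1b, Cd96, Car2 and Zfpm1 are lowest in control 5. Of the leukaemia programme genes, Hoxa9, Myb, Mecom and Cdk6 stay within 0.29 between arrays, while Meis1 and Hoxa10 (0.73) move more.

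The 423 variable genes were ordered mainly by control 5. It was the highest or lowest array in 339 of them (80.1%), highest in 120 and lowest in 219. Control 4 was highest in 132 and lowest in 17. When each gene was split at its widest gap, control 5 alone lay below the other 4 in 160 genes and alone above them in 51. The next most common split set controls 1 and 2 below the other 3, in 55 genes, and above them in 18. The class is a small part of the well-measured genes: the median range over the genes with a mean of at least 5 was 0.38, and 52 of the variable genes had a range of at least 2.

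The widest ranges belonged to genes of varied roles. Cstf2t, a subunit of the RNA cleavage machinery, read 7.26, 7.26, 4.86, 5.71 and 2.06, a 36.7-fold span. Mtus1, a microtubule-associated tumour suppressor candidate, read 4.19, 4.25, 7.29, 7.19 and 8.92. Thbs1, the matrix protein thrombospondin 1, read 4.55, 4.60, 8.13, 6.77 and 9.17. Controls 1 and 2 read alike in all 3 genes and lay at the end opposite to control 5. Their ranges without control 5 were still 2.40, 3.09 and 3.59. Clu, the chaperone clusterin (5.48, 5.46, 7.96, 7.11 and 8.89), and Hebp1, a haem-binding protein (3.94, 4.33, 6.76, 6.19 and 7.44), had the same order. Another Clu probe set had a range of 2.66 and the same highest and lowest array. A further Clu probe set had a range of 0.61 and a different highest and lowest array.

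Other wide genes differed in control 5 alone. Ctla2a, a cysteine protease inhibitor of lymphocytes and mast cells, read 8.73, 8.51, 8.07, 8.44 and 5.00, and its relative Ctla2b 7.82, 7.58, 7.05, 7.50 and 4.49. Tuba8, an alpha-tubulin, read 7.30, 7.21, 7.44, 7.67 and 4.46, and Homer2, a scaffold protein, 8.82, 8.92, 8.57, 8.68 and 6.09. These 4 genes had ranges of 0.66, 0.77, 0.46 and 0.35 without control 5. Angpt1, the ligand of the Tie2 receptor made by blood progenitors, read 7.85, 7.77, 6.35, 6.82 and 4.14. Gda, guanine deaminase, was highest in control 5, at 8.73 against 5.65 to 6.56. Without control 5 the range of Gda was 0.91, and Angpt1 still fell from 7.85 to 6.35 between its highest and lowest arrays. Ctla2a and Ctla2b are close paralogs, and how far their probe sets share signal was not tested.

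A few readings were of genes foreign to blood progenitors. Afp, the fetal liver protein alpha-fetoprotein, read 10.27, 10.22, 8.32, 8.66 and 8.06. Igha, the constant region of immunoglobulin A, read 7.73, 7.65, 5.60, 6.30 and 3.53, from a probe set of the type whose probes can match other transcripts. Mgl2, a lectin of macrophages and dendritic cells, read 2.76, 3.26, 3.52, 3.97 and 8.03. Controls 1 and 2 were high for Afp and Igha, and control 5 was the high array for Mgl2. Without control 5 the ranges were 1.95 for Afp, 2.13 for Igha and 1.20 for Mgl2.

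A second probe set gave a partial check of the ranges. Of 95 variable genes with another probe set at a mean of at least 5, 54 also had a range of at least 1 on it, and 26 had the same highest and lowest array.

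**Figure D4:**
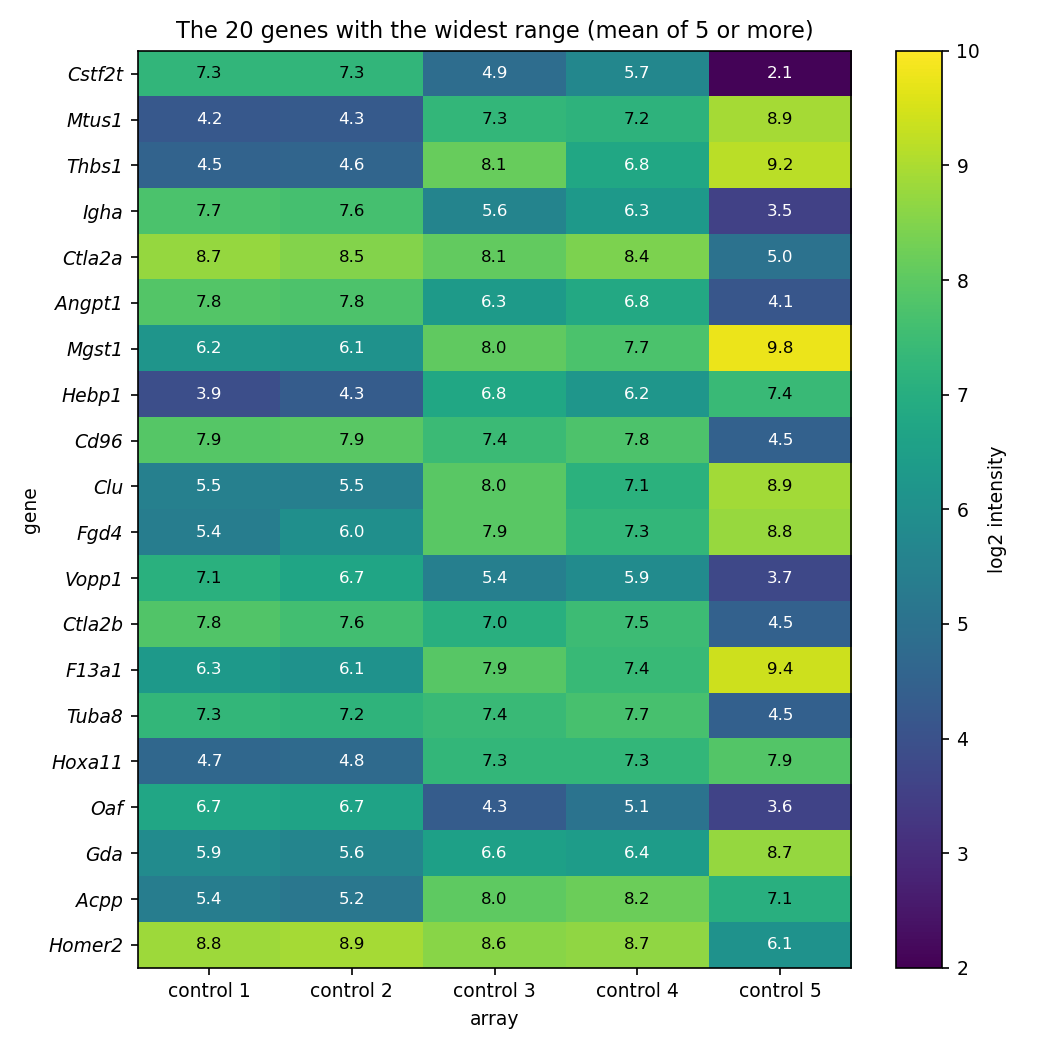
Log2 intensity (colour and printed value) of the 20 genes with the widest range among those with a mean of at least 5 (rows) on the 5 vector-control arrays (columns). Controls 1 and 2 have similar colours in each gene, and control 5 lies at an extreme in all but Acpp.

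Genes of chromosome 8 shifted together between the arrays, a pattern noticed after the values were seen. For each gene with a mean of at least 5 the deviation of each array from the gene's own mean was taken, and the median over the 390 genes of chromosome 8 was -0.18, -0.19, 0.10, 0.16 and 0.11 on controls 1 to 5. On the other chromosomes the medians lay between 0.00 and 0.07 in control 1 and between -0.11 and -0.03 in control 5. No other chromosome had a median as low as that of chromosome 8 in controls 1 and 2, or a median above 0 in controls 3 and 5.

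The shift lay in the middle of the chromosome. In 12 blocks of neighbouring genes, ordered by RefSeq, blocks 3 to 10, from Thap1 to Znrf1, held 260 genes with medians of -0.24, -0.25, 0.14, 0.19 and 0.19. In control 1, 5.38% of those genes were above their own mean, and in control 4, 94.6%. Blocks 1, 2, 11 and 12, with 130 genes, had medians of 0.03, 0.02, -0.02, 0.10 and -0.07, against 0.03, 0.02, -0.03, 0.07 and -0.07 over the 6357 genes of all other chromosomes. The 8 inner blocks spanned 0.406 to 0.587 between their highest and lowest array, and the widest of 197 blocks on other chromosomes spanned 0.327. Of the 260 genes 29 (11.2%) were variable, against 6.10% on other chromosomes, and the medians without those 29 were -0.23, -0.24, 0.14, 0.19 and 0.18. Leaving out control 5 gave a span of 0.447 over the region, the same as with it.

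Named genes within blocks 3 to 10 moved by different amounts. Hmgb2, a chromatin protein of dividing cells, read 12.41, 12.43, 12.71, 12.85 and 12.92, and Mcm5, a subunit of the replication helicase, 12.26, 12.19, 12.47, 12.53 and 12.39. Lyl1 read 10.24, 10.25, 10.43, 10.54 and 10.71. Their ranges were 0.51, 0.33 and 0.47, and all 3 genes were bright. Bst2, the first gene of block 6, was also lowest in controls 1 and 2 and had a range of 1.56. Adgre5, Adgrg3 and Calr, on chromosome 8 too, were lowest in controls 1 and 2. Hmox1, on the same chromosome, went the other way and was highest in controls 1 and 2. The blocks of Adgre5, Adgrg3, Calr and Hmox1 are not given here. Irf8 and Zfpm1 lie in block 11, outside the shifted blocks, and controls 1 and 2 were their highest arrays. Copy number was not measured, and its part in the shift was not tested.

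**Figure D5:**
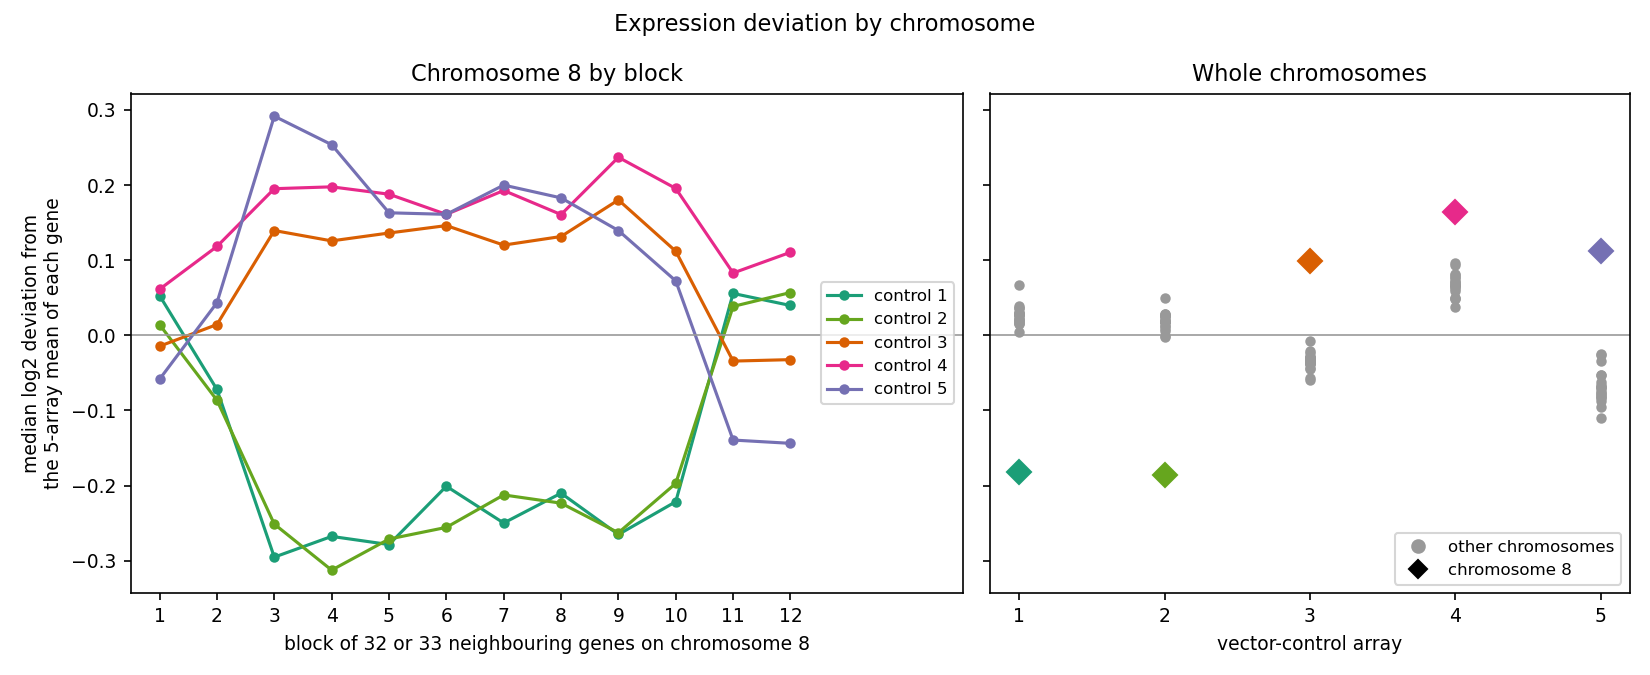
Median log2 deviation from each gene's 5-array mean (y axis) for 12 blocks of neighbouring genes along chromosome 8 (left, 1 line per vector-control array) and for whole chromosomes (right, diamonds chromosome 8, grey points the others). In blocks 3 to 10 controls 1 and 2 lie below 0 and controls 3 to 5 above 0, while the outer blocks lie close to the other chromosomes.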

How the data were processed

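Total RNA of the 5 vector-control samples was labelled with biotin and read on Affymetrix arrays, per the labels' protocols. The deposited intensity values were made with RMA, per the submitters' processing notes, with version and settings not given in the sources used here. Their linear scale was read from the range of the values (1.29 to 30500 on the control arrays). RMA normalizes arrays to each other and shrinks low signals, which compresses differences near background. Depth does not apply, and the number of arrays limits the precision.

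From these, log2 intensity was computed with pandas 2.3.3 and numpy 2.4.6 in Python 3.11.15. Of 45037 probe sets left after 64 control probe sets, 34945 had 1 gene symbol in the platform annotation, 932 several and 9160 none. The first gave 18193 genes, each by its brightest probe set over the 5 controls, and 18031 matched RefSeq by Entrez number. Thresholds were 9 (bright), 4 (dim), a mean of 5 and a range of 1 (variable).

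The members and the 35 gene lists (789 symbols, 717 measured) were chosen with earlier results of these data known. Named genes were the marked members of each list, its 2 with the highest mean and its 2 with the widest range among those with a mean of 5 or more, and over all genes the 20 with the widest range and the 15 with the highest mean. Chil3, Mgl2, Afp and Igha, and genes named without a value, were chosen after their values were seen, except that Igha is also among the 20. Calr, Hexa and Gusb were also named outside that rule, as primary granule list members not particular to granulocytes. Levels are described with no test, since there is 1 group. The calls were tested on simulated data, which checked only that the code applied its rules. The planted shifts exceeded the range threshold by design, so no result rests on that check. Alternatives changed the normalization, the probe set rule, the thresholds and the arrays included.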

Additional observations from a re-analysis of the deposited data

Results flagged for a closer look

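A sample was marked where its gap to the nearest other array exceeded 0.71 of the range of all 5. Chance alone gives this in about 1 of 20 groups of values not picked for their spread. Many named genes were picked for a wide range or after their values were seen, so that rate does not apply to them. Of 255 named genes, 28 were marked, and control 5 was the marked array in 25 of them. It was the highest array for Chil3 (8.03), S100a8 (9.10), S100a9 (4.74), Mgl2 (8.03), Ccl9 (6.85), Fos (4.74), Padi4 (8.58) and Ogdh (8.83), the last a subunit of the oxoglutarate dehydrogenase complex. It was the lowest for Cd96 (4.49), Ctla2a (5.00), Ctla2b (4.49), Homer2 (6.09), Tuba8 (4.46), Cd244a (6.89), Gfi1b (4.11), Zfpm1 (3.92), Runx1 (4.26), Pbx2 (6.11) and Emilin2 (10.44). It was also the lowest for the metabolic genes Dut (11.02), Paics (11.68), Pfkl (8.63) and Slc2a1 (9.30), and for the ribosomal protein genes Rpl35 (14.28) and Rps7 (14.23), whose ranges were 0.08 and 0.15. Control 4 was the highest array for Acly (10.75) and Kmt2a (4.92), and control 1 for Psat1 (11.35).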

How the results depend on the processing

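No paired analysis was possible because the results come from no test and 1 group. The count of bright genes was 3141 at a threshold of 8, 926 at 10 and 864 with the mean of all probe sets in place of the brightest, against 1865. Leaving out each array in turn gave 1877 to 1931. Dim genes numbered 7794 to 11081 over all alternatives, within 1.5 times of 10028. Variable genes numbered 815 at a range of 0.8, 124 at a range of 1.5, 906 without the filter on the mean, 149 at a mean of 7, and 230 with the mean of all probe sets. Leaving out each array in turn gave 173 to 387, and control 5 gave the lowest. The highest array at 5 or more in place of the mean, chosen after the data were seen, gave 572. With the mean of all probe sets, 95 list members were bright and control 5 was highest or lowest in 196 variable genes. Variable list members were 28 to 63 when each array was left out, lowest without control 5. The chromosome 8 span was 0.429 to 0.488 over all alternatives, against 0.447. Of 255 named means, 124 moved by more than the spread with the mean of all probe sets and 0 under the other alternatives. Of their ranges, 94 moved without control 5, 49 with the mean of all probe sets and at most 24 under each other alternative. Of 105 list counts, 19 moved without control 5 and 32 with the mean of all probe sets. Averaging probe sets includes dimmer ones by construction; the cause of the other changes was not tested. Signal near background limits what can be said of dim genes, and 5 arrays limit every range.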

Other observations

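Ribosomal protein and translation genes were the 15 brightest readings, and they hardly moved between the control arrays. Rplp2, a protein of the ribosomal stalk, averaged 14.29 ± 0.01 (SD, n = 5) with a range of 0.02, Rps29 14.68 ± 0.03, and Eef1a1, the elongation factor that brings transfer RNA to the ribosome, 14.08 ± 0.07.

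The 18S ribosomal RNA probe set at the 5′ end read 9.28, 6.65, 7.38, 6.84 and 7.86 on controls 1 to 5, and control 1 was the high array. This differs from the order of the variable genes, where control 5 stood out.

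The 5 shRNA arrays, each taken against the mean of their own group, had medians of -0.23, -0.29, 0.15, 0.18 and 0.20 over the 260 genes of blocks 3 to 10 of chromosome 8. Numbers 1 and 2 lay below their group's mean and numbers 3 to 5 above it, as in the controls, which the labels pair with them.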
